A study of Mus musculus with 18 samples.

Results

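AF9, AF6 and AF1p are partners that follow the break in MLL in the fusion proteins MLL-AF9, MLL-AF6 and MLL-AF1p. Their mouse genes are listed as Mllt3 (AF9), Mllt4 (AF6, now named Afdn) and Eps15 (AF1p). They were chosen by name, as the native genes of the fusion partners in the study's 3 constructs, and all 3 were found among the 23418 genes of the table and passed the filter on low values. The libraries are polyA RNA of C57BL/6 mouse leukemia cells transformed with MLL-AF9, MLL-AF6 or MLL-AF1p. Each line was given either DMSO alone (0.25%) or 6 µM MI-2-2, an inhibitor of the binding of menin to MLL, in the same final DMSO, for 6 days, with medium and compound renewed on day 3. This gives 6 groups of 3 libraries, 18 in all, so that every group carries an MLL fusion and no group is free of one. The labels do not say that the libraries of a group came from separate cultures, so the p-values cover only how far these libraries differ, and that spread may be a technical one. They give neither the species nor the extent of the partner cDNA in each construct. Reads of a construct that align to the mouse gene would be counted with that gene, and the table does not tell the native transcript and the fusion transcript apart.

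MLL fusions keep the amino-terminal part of MLL, which binds menin, and join it to a partner. AF9 is a YEATS-domain protein that reads acylated histones and connects to the super elongation complex and to the H3K79 methyltransferase DOT1L. AF6 (afadin) is a cytoplasmic adaptor that binds nectins and Rap and Ras GTPases at cell junctions, and AF1p (EPS15) is an EH-domain scaffold of clathrin-coated pits. In the fusions, AF6 and AF1p are known for bringing domains through which the proteins self-associate.

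Depth, in units of 1000000 counted reads, was 21.2 to 56.3 per library, and the MLL-AF1p libraries, at 48.9 to 56.3, were the deepest. The leukocyte markers summed to between 986 and 1910 RPKM (reads per kilobase of gene and per 1000000 counted reads) in all libraries. The T cell gene Cd3e, the B cell gene Ms4a1 and the globins Hba-a1 and Hbb-b1 were at 0 in every group, and the T and NK, B, and erythroid and megakaryocyte lists summed to at most 11.1, 2.89 and 5.60 RPKM. Neutrophil and granule markers, 12 of 13 listed genes found, summed to 9013 to 12780 RPKM in MLL-AF9 under DMSO and to 26750 to 30970 under MI-2-2. The same sum went from 7174 to 8292 up to 20760 to 23090 in MLL-AF6, and from 9784 to 11790 up to 37890 to 42340 in MLL-AF1p. The sums were largely S100a8 and S100a9, which in MLL-AF9 went from means of 1760 and 1436 to 12840 and 11720 RPKM. Of the 12 genes, 9 rose in MLL-AF6 cells and 8 in each of the other lines, while 3, the early granule protease genes Elane, Prtn3 and Ctsg, fell in MLL-AF9 and MLL-AF6 cells, Elane from 4916 to 1087 RPKM in the first. Mpo, on the same list, rose by 3.27 in MLL-AF6 and by 2.76 in MLL-AF1p on the log2 scale. In MLL-AF9 it was at -0.22 without passing. The sum of the 8 progenitor markers went from 147 to 182 down to 79.7 to 82.2 in MLL-AF9, from 236 to 246 down to 79.4 to 92.1 in MLL-AF6, and from 241 to 248 down to 137 to 140 in MLL-AF1p. Of the 5 of them above the filter, Myb, Meis1, Hoxa9 and Hoxa10 fell in all 3 constructs and Kit rose in MLL-AF9 and MLL-AF6 (0.36 and 0.38 on the log2 scale; limma, adjusted p = 0.0195 and 0.0158). Cd34 was at 0 under DMSO in those 2 constructs. The 9 monocyte and macrophage markers summed to between 1804 and 3493 RPKM under DMSO and between 4537 and 5804 under MI-2-2 in MLL-AF9. Their sums were 5491 to 7942 and 10880 to 14360 in MLL-AF6, and 4465 to 4569 and 6954 to 7422 in MLL-AF1p. Of the 8 monocyte and macrophage genes above the filter, 7, 6 and 7 rose in MLL-AF9, MLL-AF6 and MLL-AF1p. Ly6c2 fell in all 3, by 0.49, 0.95 and 0.36 on the log2 scale. The list of stroma, endothelium and epithelium was nearly all Pecam1, which leukocytes also express, and came to 0.162 to 1.51 RPKM without it. In every comparison of treatments below, the sums of these myeloid lists moved as well, and their part in the results was not tested. Fewer cells of a type and less RNA per cell cannot be told apart in bulk RNA.

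Mllt3 and Mllt4 were low genes and Eps15 was a middling one. Over the libraries Mllt3 stood at the 4.78th to 18.8th percentile of the 11238 genes kept, Mllt4 at the 5.0th to 26.7th and Eps15 at the 47.7th to 62.9th. The authors' table gives lengths of 10906, 7416 and 9453 bases. Whole reads were recovered for the 3 genes, and they ranged from 176 to 841 for Mllt3, 82 to 1448 for Mllt4 and 1866 to 8494 for Eps15. In the GRCm38 annotation no run of 50 bases was shared between Mllt3 and its paralog Mllt1 (ENL), or between Eps15 and its paralog Eps15l1. Mllt4 has 10490 runs of 50 bases per strand. In total 394 runs matched transcripts of other genes, 222 of Zfp160 and 172 of Tcte2. Zfp160 had group means of 4.11 to 6.29 RPKM, above Mllt4 in every group, so a small part of the Mllt4 reads is uncertain. Tcte2 lies on the opposite strand and covers 221 of its exon bases, and it was at 0 RPKM in every group.

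**Figure D1:**
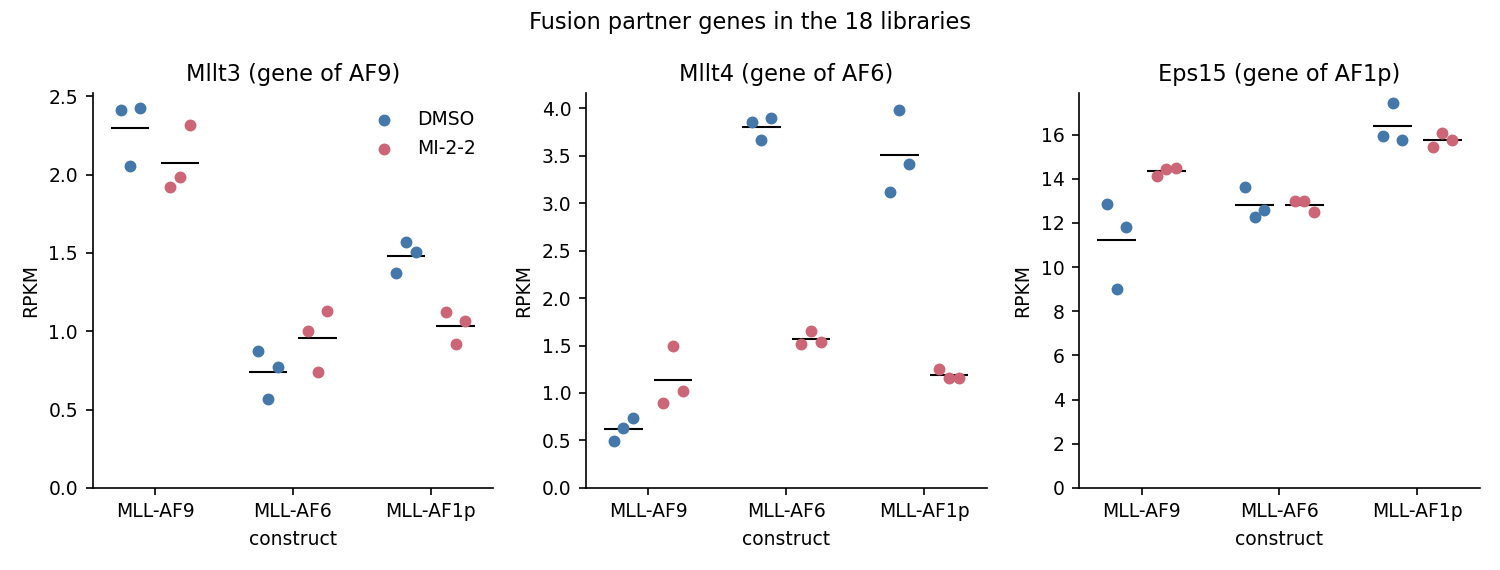
RPKM of Mllt3, Mllt4 and Eps15 in each of the 18 libraries, by construct and treatment, with the group means. Mllt4 is highest in MLL-AF6 and MLL-AF1p under DMSO, Mllt3 is highest in MLL-AF9, and Eps15 is highest in MLL-AF1p.

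Mllt4, the afadin gene, had the widest range of the 3 genes relative to its level, 0.498 to 3.98 RPKM. Its promoter window is printed because Mllt4 is the member whose level changed most, and that of Mllt3 to set the other low gene beside it. Both are the 250 bases before the transcription start in RefSeq (build GRCm38.p6), on the gene's own strand, which is chr17:13760291-13760540 (plus strand) for Mllt4 and chr4:88033408-88033657 (minus strand) for Mllt3. Capitals mark matches, on either strand, to CCAAT or GGGCGG.
Mllt4: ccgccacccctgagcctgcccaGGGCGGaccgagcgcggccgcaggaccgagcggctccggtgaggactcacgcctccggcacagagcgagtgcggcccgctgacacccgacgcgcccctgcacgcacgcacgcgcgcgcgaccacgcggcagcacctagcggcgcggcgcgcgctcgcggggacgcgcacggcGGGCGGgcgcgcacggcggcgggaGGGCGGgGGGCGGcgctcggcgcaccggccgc
Mllt3: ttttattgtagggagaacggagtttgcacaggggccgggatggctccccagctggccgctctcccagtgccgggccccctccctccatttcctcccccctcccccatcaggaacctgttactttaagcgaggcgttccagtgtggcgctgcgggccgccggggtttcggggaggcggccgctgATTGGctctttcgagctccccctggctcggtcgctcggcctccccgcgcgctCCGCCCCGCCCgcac
The Mllt4 window holds GGGCGG 4 times and no CCAAT, with 51 CG dinucleotides and 82.8% G or C. The Mllt3 window holds 1 CCAAT and 2 overlapping GGGCGG matches, all on the other strand, with 23 CG dinucleotides and 69.2% G or C. Of 32851 windows of the same length, 32.7% hold GGGCGG and 33.8% hold CCAAT, and the median window has 6 CG dinucleotides and 52.4% G or C. TATAAA and CCGGAA, found in 12.4% and 12.0% of windows, were in neither. A match of letters is a description and no binding was measured.

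In MLL-AF6 cells Mllt4 was at 3.85, 3.67 and 3.89 RPKM in the 3 DMSO libraries and at 1.52, 1.65 and 1.54 RPKM in the 3 MI-2-2 libraries. All 3 treated libraries lay below all 3 DMSO libraries. MI-2-2 lowered Mllt4 by 1.06 ± 0.12 (SE) on the log2(RPKM + 0.5) scale in these cells, a fold of 0.48 on that scale (limma, adjusted p = 2.84e-06).

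In MLL-AF1p cells Mllt4 was at 3.12, 3.98 and 3.41 RPKM under DMSO and at 1.26, 1.16 and 1.16 RPKM under MI-2-2. The groups again did not overlap, and the log2 difference was -1.24 (95% interval -1.496 to -0.98; limma, adjusted p = 9.25e-07). In MLL-AF9 cells, where the DMSO level was already low, Mllt4 was at 0.498, 0.626 and 0.738 RPKM under DMSO and at 0.890, 1.499 and 1.02 RPKM under MI-2-2. There the treated libraries lay above the DMSO libraries, with a log2 difference of 0.53 ± 0.12 (95% interval 0.28 to 0.79; limma, adjusted p = 0.00152). Across the 11238 genes, 56.4% passed in MLL-AF9 (28.5% higher, 27.9% lower), 57% in MLL-AF6 (18% higher, 38.9% lower) and 45.4% in MLL-AF1p (19.1% higher, 26.3% lower), so a call alone was common. The share of all genes whose treated and DMSO libraries do not overlap was not computed, here or for Mllt3 and Eps15 below. Such separation is therefore only a description of the values. The directions of Mllt4, higher in MLL-AF9 and lower in both other constructs, were shared by 74 genes, 0.658% of those tested. The pattern was taken from the calls of Mllt4, which is among the 74, so the share is a description. This holds too for the patterns counted below for Mllt3 and Eps15.

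Under DMSO the order of Mllt4 was MLL-AF6 (3.81 ± 0.12 RPKM, SD, n = 3), MLL-AF1p (3.50 ± 0.44) and MLL-AF9 (0.62 ± 0.12). MLL-AF6 and MLL-AF1p, whose libraries overlapped, did not pass (log2 difference 0.11, limma, adjusted p = 0.465), while MLL-AF9 was 1.95 lower than MLL-AF6 on the log2 scale (limma, adjusted p = 3.06e-09) and 1.84 lower than MLL-AF1p (limma, adjusted p = 5.28e-09). Under MI-2-2 the 3 groups drew together at 1.57 ± 0.07, 1.19 ± 0.06 and 1.14 ± 0.32 RPKM. MLL-AF6 against MLL-AF1p then missed the threshold (0.29, limma, adjusted p = 0.0561), but passed with median centring (0.36, adjusted p = 0.0203), quantile normalization (0.38, adjusted p = 0.0119) and voom (0.39, adjusted p = 0.0398). MLL-AF9 against MLL-AF1p was at -0.07 (limma, adjusted p = 0.671), and against MLL-AF6 it was at -0.36 (limma, adjusted p = 0.0272). The last call was lost without any 1 of 5 libraries, namely the MI-2-2 libraries of MLL-AF6 and replicates 1 and 3 of MLL-AF9 (adjusted p from 0.052 to 0.138), and with no filter on low values (limma, adjusted p = 0.0525). Of all genes, 53.6%, 65.1% and 52.5% passed under DMSO between MLL-AF9 and MLL-AF6, MLL-AF9 and MLL-AF1p, and MLL-AF6 and MLL-AF1p, and 43.1%, 54.1% and 52.5% under MI-2-2.

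Mllt3, the AF9 gene, passed the test of MI-2-2 in 1 of the 3 constructs. In MLL-AF1p cells it was at 1.37, 1.57 and 1.504 RPKM under DMSO and at 1.12, 0.918 and 1.07 RPKM under MI-2-2, with every treated library below every DMSO library. The log2 difference of -0.37 ± 0.12 passed (95% interval -0.62 to -0.12; limma, adjusted p = 0.0185), although without MLL-AF1p DMSO replicate 2 or 3, or MI-2-2 replicate 2, it did not (limma, adjusted p = 0.0601, 0.0517 and 0.0761).

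In MLL-AF9 cells Mllt3 was at 2.41, 2.05 and 2.43 RPKM under DMSO and at 1.92, 1.98 and 2.32 RPKM under MI-2-2. These groups overlapped, and the log2 difference was -0.12 (95% interval -0.37 to 0.13; limma, adjusted p = 0.406). In MLL-AF6 cells it was at 0.876, 0.570 and 0.771 RPKM under DMSO and at 1.00, 0.739 and 1.13 RPKM under MI-2-2. The difference of 0.23 did not pass (95% interval -0.02 to 0.48; limma, adjusted p = 0.104). A call lower in MLL-AF1p alone was found for 4.99% of all genes tested.

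Between MLL-AF9 and MLL-AF6 cells under DMSO, Mllt3 differed by 1.18 on the log2 scale (limma, adjusted p = 6.54e-07). Under DMSO the order was MLL-AF9 (2.30 ± 0.21 RPKM), MLL-AF1p (1.48 ± 0.10) and MLL-AF6 (0.74 ± 0.16), and each neighbour differed: MLL-AF9 was 0.50 above MLL-AF1p on the log2 scale (limma, adjusted p = 0.0017), and MLL-AF6 was at -0.68 against MLL-AF1p (limma, adjusted p = 0.00022). Under MI-2-2, MLL-AF9 was at 2.08 ± 0.21 RPKM and stayed 0.75 above MLL-AF1p (limma, adjusted p = 7.93e-05), while MLL-AF1p (1.03 ± 0.10) and MLL-AF6 (0.96 ± 0.20) did not pass (-0.08, limma, adjusted p = 0.574).

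Eps15, the AF1p gene, rose with MI-2-2 in MLL-AF9 cells. It was at 12.9, 8.98 and 11.8 RPKM under DMSO and at 14.1, 14.5 and 14.5 RPKM under MI-2-2, with the treated libraries all above and DMSO replicate 2 the lowest of the 18 libraries. The log2 difference was 0.36 ± 0.09 (95% interval 0.16 to 0.56; limma, adjusted p = 0.00431). Without DMSO replicate 2 the value was 0.21 (limma, adjusted p = 0.00992), and with MLL-AF9 fitted alone it did not pass (limma, adjusted p = 0.0713). A call higher in MLL-AF9 alone was found for 7.77% of all genes tested.

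In MLL-AF6 cells Eps15 was at 13.6, 12.3 and 12.6 RPKM under DMSO and at 13.0, 13.0 and 12.5 RPKM under MI-2-2. The groups overlapped, and the log2 difference was 0.00 (95% interval -0.20 to 0.20; limma, adjusted p = 0.996). In MLL-AF1p cells it was at 16.0, 17.4 and 15.7 RPKM under DMSO and at 15.4, 16.1 and 15.8 RPKM under MI-2-2. They overlapped too, with a difference of -0.05 (95% interval -0.25 to 0.15; limma, adjusted p = 0.667).

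Eps15 was highest in MLL-AF1p cells, with 16.4 ± 0.93 RPKM under DMSO against 12.8 ± 0.73 in MLL-AF6 and 11.2 ± 2.0 in MLL-AF9. MLL-AF1p was 0.34 above MLL-AF6 on the log2 scale (limma, adjusted p = 0.00677) and 0.54 above MLL-AF9 (limma, adjusted p = 0.000122), while MLL-AF9 and MLL-AF6 did not pass (-0.20, limma, adjusted p = 0.0851). That last value ran from -0.30 to -0.05 with 1 library left out, the smallest without MLL-AF9 DMSO replicate 2, and passed without MLL-AF9 DMSO replicate 1 (limma, adjusted p = 0.00868). Under MI-2-2 the levels were 15.7 ± 0.32, 14.4 ± 0.19 and 12.8 ± 0.30 RPKM in MLL-AF1p, MLL-AF9 and MLL-AF6. Of the 3 pairs, only MLL-AF1p against MLL-AF6 passed (-0.29 for MLL-AF6 against MLL-AF1p, limma, adjusted p = 0.0181), and it was lost without MLL-AF1p replicate 2 or MLL-AF6 replicate 3 (limma, adjusted p = 0.055 and 0.0581). MLL-AF9 against MLL-AF6 was at 0.16 (limma, adjusted p = 0.191) and MLL-AF9 against MLL-AF1p at -0.13 (limma, adjusted p = 0.258).

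**Figure D2:**
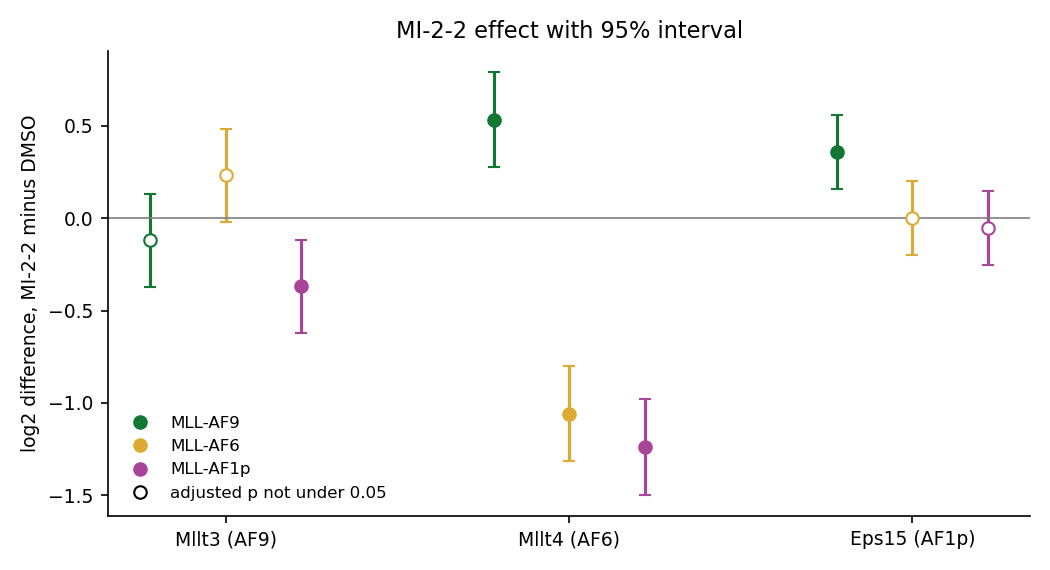
Log2 difference of MI-2-2 against DMSO for each gene in each construct, with its 95% interval. Mllt4 is the gene with called differences on opposite sides of 0, at 0.53 in MLL-AF9 and -1.06 and -1.24 in MLL-AF6 and MLL-AF1p; open circles did not pass the threshold.

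The effect of MI-2-2 was compared between constructs in the same fit. For Mllt4 the MLL-AF9 effect stood 1.59 above that of MLL-AF6 (limma, adjusted p = 8.11e-06) and 1.77 above that of MLL-AF1p (limma, adjusted p = 3.5e-06), on the log2 scale. Its effects in MLL-AF6 and MLL-AF1p did not pass as different (0.18, limma, adjusted p = 0.454). For Mllt3 the effect in MLL-AF6 exceeded that in MLL-AF1p by 0.60 (limma, adjusted p = 0.0128), and the other pairs did not pass (-0.35 for MLL-AF9 minus MLL-AF6, adjusted p = 0.117; 0.25 for MLL-AF9 minus MLL-AF1p, adjusted p = 0.261). For Eps15 the MLL-AF9 effect exceeded the MLL-AF1p effect by 0.41 (limma, adjusted p = 0.0256), and missed the threshold against MLL-AF6 (0.36, limma, adjusted p = 0.0503). Without MLL-AF9 DMSO replicate 2 these became 0.27 (limma, adjusted p = 0.0228) and 0.21 (limma, adjusted p = 0.0663). The first lost its call without MLL-AF1p DMSO replicate 2, MLL-AF1p MI-2-2 replicate 1 or MLL-AF9 MI-2-2 replicate 3 (limma, adjusted p = 0.0608, 0.0565 and 0.0501), and with median centring or quantile normalization (limma, adjusted p = 0.0753 and 0.0528). Of all genes, 33.1%, 35.1% and 31.1% passed for MLL-AF9 minus MLL-AF6, MLL-AF9 minus MLL-AF1p and MLL-AF6 minus MLL-AF1p.

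The mean of each gene was highest in the line whose construct carries that partner, in both treatments. In the main fit the lead of Mllt4 over MLL-AF1p did not pass in either treatment. Nor did the lead of Eps15 over MLL-AF9 under MI-2-2. How many of all genes have their means in such an order was not computed. Mllt3 was 1.19 RPKM higher in MLL-AF9 than in the other 2 constructs under DMSO (2.30 against 1.11) and 1.08 higher under MI-2-2, with no overlap in either treatment. The log2 differences were 0.84 (limma, adjusted p = 3.94e-06) and 0.79 (limma, adjusted p = 1.31e-05). Of all genes, 15.3% had their MLL-AF9 libraries above all the others under DMSO, 23.5% under MI-2-2 and 9.26% in both.

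Mllt4 was 1.74 RPKM higher in MLL-AF6 under DMSO than in the other 2 constructs (3.81 against 2.06), with 1 MLL-AF1p library, at 3.98, above all MLL-AF6 libraries. Under MI-2-2 it was 0.405 RPKM higher, with MLL-AF6 at 1.52 or above and the others at 1.499 or below. The log2 differences were 1.03 (limma, adjusted p = 1.69e-06) and 0.32 (limma, adjusted p = 0.0191). Without MLL-AF6 MI-2-2 replicate 2 the second did not pass (limma, adjusted p = 0.0651). MLL-AF1p was also above the mean of the other constructs under DMSO, by 0.86 (limma, adjusted p = 5.12e-06). MLL-AF6 libraries lay above all others for 9.84% of genes under DMSO, 9.28% under MI-2-2 and 3% in both.

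Eps15 was 4.36 RPKM higher in MLL-AF1p under DMSO (16.4 against 12.0) and 2.16 higher under MI-2-2 (15.7 against 13.6), with no overlap in either. The log2 differences were 0.44 (limma, adjusted p = 0.000251) and 0.21 (limma, adjusted p = 0.0397). Without 1 library, the second value ranged from 0.19 to 0.22 and missed the threshold in 9 of 18 cases. MLL-AF1p libraries lay above all others for 20.9% of genes under DMSO, 29.3% under MI-2-2 and 13% in both. The share called higher was 27.5% and 28.5% for MLL-AF9 under DMSO and MI-2-2, 24.5% and 13.8% for MLL-AF6, and 34% and 32.5% for MLL-AF1p. How much of each excess is reads of the construct was not tested.

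**Figure D3:**
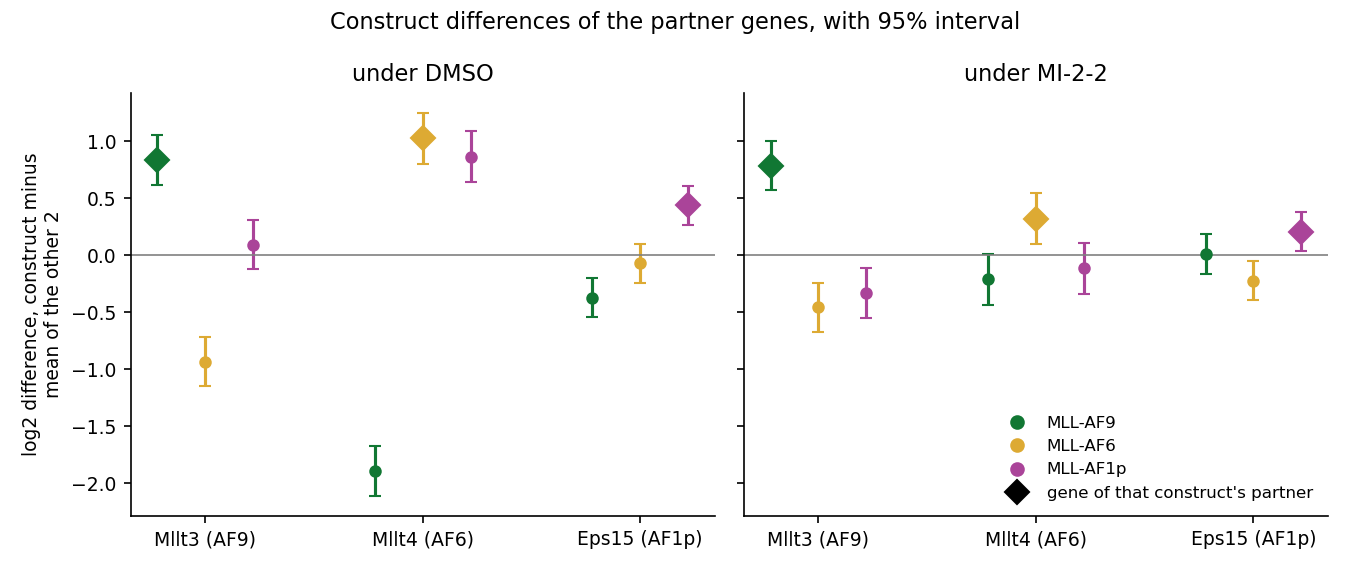
Log2 difference of each construct against the mean of the other 2, under DMSO and under MI-2-2, with 95% intervals, for Mllt3, Mllt4 and Eps15. The matching constructs lie above 0 in all 6 cases, between 0.21 and 1.03. Of all genes, 13.8% to 34% were called higher in such a comparison. The share that lies above 0 for a given construct in both treatments was not computed. For Mllt4 under DMSO, MLL-AF1p lies above 0 as well, at 0.86.

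Genes next to the constructs were read beside these values. Mll1 (Kmt2a), the shared first part of the fusions, was 0.64 higher in MLL-AF1p than in the other constructs under DMSO (limma, adjusted p = 1.16e-06) and 0.47 higher under MI-2-2 (limma, adjusted p = 2.85e-05). It is the same construct in which Eps15 was highest. Under DMSO, Mll1 was lowest in MLL-AF9 (6.94, 7.83 and 8.39 RPKM), the construct in which Mllt3 was highest. Under MI-2-2 it was lowest in MLL-AF6 (7.69, 7.39 and 6.78 RPKM), the construct in which Mllt4 was highest. How far reads of the constructs enter the Mll1 values was not tested. With MI-2-2, Mll1 rose by 0.37 in MLL-AF9 (limma, adjusted p = 0.000752), fell by 0.33 in MLL-AF6 (limma, adjusted p = 0.00206) and was at -0.15 in MLL-AF1p (limma, adjusted p = 0.129). Eps15 also rose in MLL-AF9 and was at 0.00 in MLL-AF6.

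The paralogs of Mllt3 and Eps15 were read in the same way. Mllt1 was at 19.6, 20.4 and 20.02 RPKM in MLL-AF9 DMSO libraries and at 11.2, 11.2 and 11.04 under MI-2-2. It fell by 0.81 in MLL-AF9 (limma, adjusted p = 1.79e-08) and by 0.79 in MLL-AF6 (limma, adjusted p = 2.79e-08), and was at -0.07 in MLL-AF1p (limma, adjusted p = 0.397), where Mllt3 was lower. Eps15l1 passed in no construct (0.11, -0.13 and 0.03). Against the other constructs it was lower in MLL-AF1p, by -0.28 under DMSO (limma, adjusted p = 0.00102) and -0.24 under MI-2-2 (limma, adjusted p = 0.00392), where Eps15 was higher.

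Lists of genes around each partner were counted under MI-2-2 and set beside all genes, whose median log2 differences were -0.001, -0.159 and -0.058 in MLL-AF9, MLL-AF6 and MLL-AF1p. The lists were put together with earlier results of these data known and carry no test of their own. Counts in brackets are the lowest and highest over the other settings tried. The shares of all genes that rose and fell in a construct stand beside the counts for that construct.

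Of the 19 genes around AF9 (YEATS relatives and elongation complexes), 16 passed the filter. In MLL-AF9, 4 rose (1 to 4) and 1 fell (1 to 4), with a median of 0.08, where 28.5% of all genes rose and 27.9% fell. In MLL-AF6, 1 rose (1 to 2) and 8 fell (5 to 12), with a median of -0.25 (all genes 18% and 38.9%), and in MLL-AF1p, 1 rose (1 to 3) and 5 fell (2 to 6), with a median of -0.09 (all genes 19.1% and 26.3%). Aff4, the scaffold of the super elongation complex, rose by 0.60 in MLL-AF9 (limma, adjusted p = 0.00126) and was at 0.32 and 0.29 in the others, without passing. Dot1l, the methyltransferase that AF9 recruits, rose by 0.25 in MLL-AF9 and 0.29 in MLL-AF1p. Cdk9, the kinase of P-TEFb, passed in none (-0.03, -0.15 and 0.09), and neither did Cbx8, a Polycomb protein that binds AF9.

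Of the 26 genes around afadin, 18 passed. In MLL-AF9, 7 rose (6 to 9) and 2 fell (2 to 4) (all genes 28.5% and 27.9%), in MLL-AF6, 5 rose (2 to 6) and 3 fell (3 to 4) (all genes 18% and 38.9%), and in MLL-AF1p, 3 rose (2 to 7) and 5 fell (4 to 8) (all genes 19.1% and 26.3%). The medians were 0.19, -0.02 and 0.00. The nectins and cadherins that afadin serves at epithelial junctions were mostly below the filter. Pvrl3 (nectin-3) had at most 0.00296 RPKM in any library, Cdh2 at most 0.00439 and Tjp1 (ZO-1) at most 0.00279. Pvrl2 (nectin-2) was expressed, at 16.2 ± 3.5 RPKM in MLL-AF9 under DMSO, and fell by 0.70 in MLL-AF9 and by 0.99 in MLL-AF1p (limma, adjusted p = 0.00713 and 0.000853). Plekha7, a junction protein linked to p120 catenin, fell by 0.82 in MLL-AF6 and by 0.66 in MLL-AF1p (limma, adjusted p = 0.00514 and 0.0232). It was at -0.24 in MLL-AF9 without passing. Ctnnd1, the p120 catenin gene, passed in none (0.18, -0.16 and -0.19 in MLL-AF9, MLL-AF6 and MLL-AF1p). Neither Ctnna1 nor Ssx2ip passed in any construct. The Rap GTPase gene Rap1a rose by 0.35 in MLL-AF9 and by 0.49 in MLL-AF6, and Rap1b rose in MLL-AF9 alone, by 0.38.

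Of the 27 endocytic genes around EPS15, 26 passed. In MLL-AF9, 11 rose (10 to 15) and 7 fell (5 to 8) (all genes 28.5% and 27.9%), in MLL-AF6, 8 rose (6 to 11) and 6 fell (6 to 7) (all genes 18% and 38.9%), and in MLL-AF1p, 11 rose (7 to 13) and 5 fell (4 to 6) (all genes 19.1% and 26.3%). The medians were 0.16, 0.07 and 0.15. Across the 3 constructs, 6 of the 26 genes rose in every one and 4 fell in every one. The share of all genes that did so was not computed, so these counts are a description. Chosen after their values were seen, the 6 are the clathrin light chain genes Clta and Cltb, the adaptor subunit gene Ap2a2, Synj1, Numb and Reps2, and the 4 are Itsn1, Stam, Ston2 and Ehd1. Itsn1, an EH-domain scaffold like EPS15, fell in all 3, by 1.47, 1.44 and 1.03, and Itsn2 rose by 1.07 in MLL-AF9 and by 0.25 in MLL-AF1p. Stam, a partner of EPS15 and Hgs in sorting ubiquitinated receptors, fell in all 3, by 0.29, 0.68 and 0.71. The clathrin heavy chain gene Cltc rose by 0.66 in MLL-AF9 (limma, adjusted p = 1.68e-05) and by 0.25 in MLL-AF1p (limma, adjusted p = 0.0334). Epn1 and Fcho2, which bind EPS15 at the pit, passed in none.

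**Figure D4:**
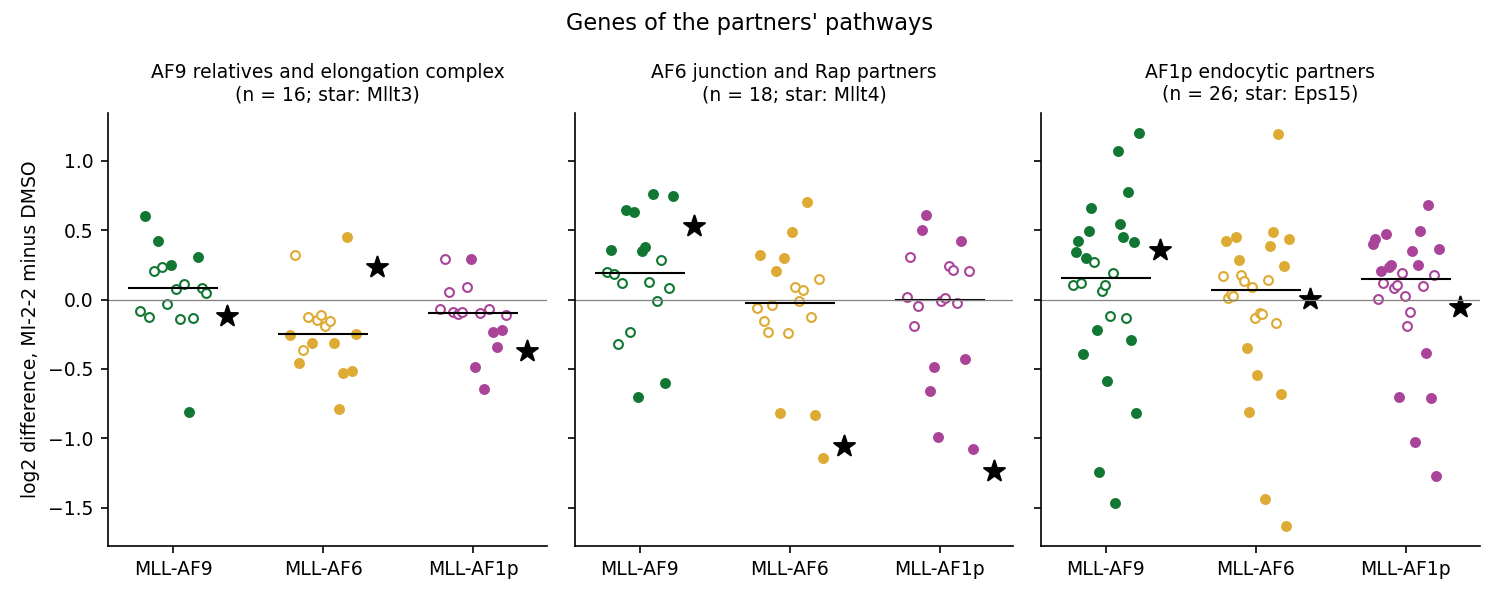
Log2 difference of MI-2-2 against DMSO for the 16, 18 and 26 kept genes around AF9, AF6 and AF1p, in each construct, filled where limma's adjusted p was under 0.05, with the list's median as a line and the member as a star. The Mllt4 star lies below the median of its list, -0.02 and 0.00, in MLL-AF6 and MLL-AF1p, and above it, 0.19, in MLL-AF9.

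Of 34 other MLL fusion partner genes, 24 passed, and 5 septin genes were matched to no row by name and not analysed. In MLL-AF9, 12 rose (8 to 13) and 3 fell (3 to 7), with a median of 0.31 (all genes 28.5% and 27.9%), in MLL-AF6, 5 rose (4 to 8) and 7 fell (4 to 8), with a median of -0.01 (all genes 18% and 38.9%), and in MLL-AF1p, 3 rose (1 to 7) and 3 fell (1 to 8), with a median of -0.06 (all genes 19.1% and 26.3%). Of MLL1, menin and LEDGF, the proteins of the complex that MI-2-2 addresses, Men1 fell in MLL-AF9 and MLL-AF6 by 0.49 and 0.56 and was at -0.06 in MLL-AF1p, and Psip1 (LEDGF) fell in all 3, by 0.31, 0.27 and 0.36.

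The genes whose levels followed a member most closely over the 18 libraries were found by Pearson's r of log2(RPKM + 0.5), as a description. The libraries share constructs and treatments, so these values mirror the group pattern. For Mllt4 they were Kat6b (0.963), a histone acetyltransferase, Nlrp10 (0.959) and Skap2 (0.953). Nlrp10 was at 6.51 ± 1.14 RPKM in MLL-AF6 and 5.44 ± 0.21 in MLL-AF1p under DMSO, and at 1.26 ± 0.13 and 1.83 ± 0.18 under MI-2-2, with 0.58 ± 0.25 and 1.12 ± 0.41 in MLL-AF9. Skap2, an adaptor of integrin signalling in myeloid cells, stood far higher, at 316 ± 9.8 and 244 ± 5.2 RPKM in MLL-AF6 and MLL-AF1p under DMSO and 131 ± 10 in MLL-AF9.

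For Mllt3 they were Tpmt (0.951), Spats2 (0.935) and Tmem9 (0.932). Tpmt, the thiopurine methyltransferase gene, was at 3.12 ± 0.47 RPKM in MLL-AF9, 2.05 ± 0.15 in MLL-AF1p and 1.40 ± 0.24 in MLL-AF6 under DMSO, the order of Mllt3. For Eps15 they were Rock1 (0.955), Casc5 (0.940), a kinetochore scaffold and itself on the list of MLL partners, and Pdcd10 (0.937). Rock1 was at 21.9 ± 2.8 RPKM in MLL-AF1p and 13.3 ± 2.6 in MLL-AF9 under DMSO.

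**Figure D5:**
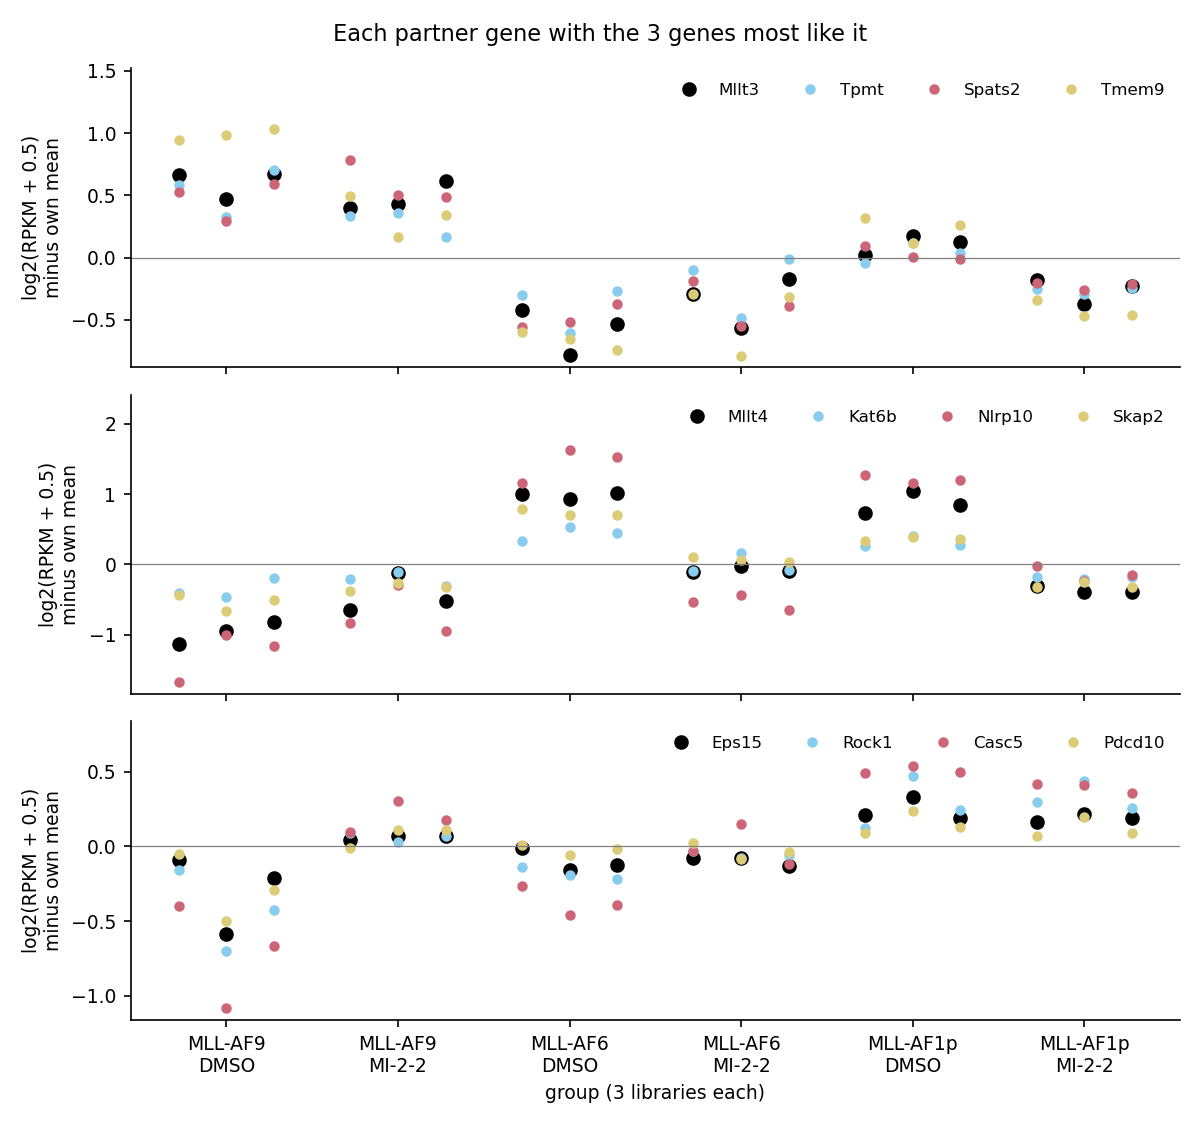
Levels of each member and of the 3 genes most like it by Pearson's r, in the 18 libraries, on the log2(RPKM + 0.5) scale centred on each gene's mean. Mllt4, Kat6b, Nlrp10 and Skap2 are all high in the DMSO libraries of MLL-AF6 and MLL-AF1p.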

How the data were processed

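Tools listed in the submitters' processing notes, with no role given, are Bowtie2 2.0.0.7, CASAVA 1.8.2, edgeR and HTSeq, and the build listed is mm9. The deposited values are RPKM per gene, scaled by the authors to counted reads, with gene lengths beside them per the file headers. RPKM times length gave whole reads for 100% of values (tolerance 0.05), and depth is the sum of those reads. The kit does not mark strand, and the labels mention single-end as well as paired-end reads. Genes with 1 RPKM or more in at least 3 of 18 libraries were kept (11238 of 23418). limma 3.58.1 in R 4.3.3 fitted the 6 group means to log2(RPKM + 0.5) with a trended prior and 12 residual degrees of freedom. Benjamini-Hochberg adjustment covered all kept genes, with a threshold of 0.05. Fold changes on this scale understate low genes such as Mllt3 and Mllt4. The script was tested on simulated data.

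Named genes were the members, 28 genes chosen by role, and the 3 genes most like each member. Members and lists were chosen with earlier results of these data known. Between libraries of a group, r was 0.972 to 0.998 and none differed by less than sampling noise. The replicate numbers were not used as pairs. Eps15's entry in the RefSeq promoter table lies inside the gene and was not printed. The 5 septin names on the list of partners matched no row, and 25 row names are bare numbers, and whether names were altered was not tested. Figures were drawn with Python 3.11.15 and matplotlib 3.10.9. Alternatives were pseudocounts of 0.1 and 1, no filter, median centring, quantile normalization, a constant prior, the replicate block, separate fits, voom on recovered reads and leaving out each library.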

Additional observations from a re-analysis of the deposited data

Results flagged for a closer look

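The effect of MI-2-2 on these genes differed between constructs in 4 tests of the difference itself (limma, adjusted over 11238 genes). The other pairs of constructs did not pass for these genes. Among the 11238 genes, 33.1% passed for MLL-AF9 minus MLL-AF6, 35.1% for MLL-AF9 minus MLL-AF1p and 31.1% for MLL-AF6 minus MLL-AF1p. A call alone was therefore common. For Mllt4 the log2 difference of effects was 1.59 between MLL-AF9 and MLL-AF6 and 1.77 between MLL-AF9 and MLL-AF1p, with the gene higher under MI-2-2 in MLL-AF9 and lower in the other constructs. For Mllt3 it was 0.60 between MLL-AF6 and MLL-AF1p, and for Eps15 0.41 between MLL-AF9 and MLL-AF1p. The Eps15 value was 0.27 without MLL-AF9 DMSO replicate 2, lost its call in 3 of 18 fits with 1 library left out, and lost it with median centring and quantile normalization (adjusted p = 0.0753 and 0.0528). Groups of 3 libraries were not tested for a single library that stands apart. Whether reads of the constructs enter these differences was not tested.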

How the results depend on the processing

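For the 24 tests of the members (treatment effects, their differences and the matching construct), 608 of 639 values under the alternatives kept both direction and side of the threshold, 20 lost the call, 11 gained it and none reversed (limma throughout). Fitting each construct alone, the Eps15 effect in MLL-AF9 stayed at 0.36 but lost its call (adjusted p = 0.0713). With no filter, Eps15 in MLL-AF1p against the others under MI-2-2 stayed at 0.21 (adjusted p = 0.0744). Median centring and quantile normalization gave 0.29 and 0.32 for the Eps15 difference of MLL-AF9 minus MLL-AF1p (adjusted p = 0.0753 and 0.0528). For MLL-AF9 minus MLL-AF6, Eps15 passed with a pseudocount of 1 (0.34), voom (0.37) and the replicate block (0.36). Median centring made Mllt3 pass in MLL-AF6 (0.32) and for MLL-AF9 minus MLL-AF6 (-0.52). Leaving out 1 library each time gave 0.21 to 0.46 for the Eps15 effect in MLL-AF9, 0.19 to 0.22 for Eps15 in MLL-AF1p against the others under MI-2-2 (call lost in 9 of 18), 0.27 to 0.51 for its difference of MLL-AF9 minus MLL-AF1p, 0.21 to 0.46 for MLL-AF9 minus MLL-AF6, -0.41 to -0.31 for Mllt3 in MLL-AF1p, 0.13 to 0.34 for Mllt3 in MLL-AF6, -0.46 to -0.25 for Mllt3 MLL-AF9 minus MLL-AF6, and 0.27 to 0.40 for Mllt4 in MLL-AF6 against the others under MI-2-2. Among pairs of constructs, Mllt4 in MLL-AF6 against MLL-AF1p under MI-2-2 passed with median centring (0.36), quantile normalization (0.38), voom (0.39), the replicate block and a constant prior (both 0.29). With each treatment fitted alone, Eps15 in MLL-AF6 against MLL-AF1p under DMSO lost its call (-0.34, adjusted p = 0.0571), and in MLL-AF9 it passed under MI-2-2 against MLL-AF6 (0.16) and MLL-AF1p (-0.13). Among the other named genes, 56 of 2916 values lost a call and 73 gained one.

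The replicate numbers gave correlations of 0.001 to 0.557 over 9 pairs, 5 of them over 0.1, and 5 of 9 DMSO libraries correlated best with their own number. The replicate block moved the genes called from 6339 to 6914 in MLL-AF9, 6402 to 7048 in MLL-AF6 and 5103 to 5938 in MLL-AF1p. Median centring moved the genes called for MLL-AF9 minus MLL-AF6 from 2702 higher and 1014 lower to 1302 and 1676, and quantile normalization to 1469 and 1321. For MLL-AF9 minus MLL-AF1p, median centring moved those lower from 1532 to 2379. It shifted the median of all genes by -0.163 and -0.121 in those comparisons, and quantile normalization by -0.122 in the first. The share of calls that were higher went with centring from 72.7% to 43.7% and from 61.1% to 41% in those, from 31.6% to 41.9% for MI-2-2 in MLL-AF6, from 61.5% to 49.3% for MLL-AF9 and from 28.1% to 42.8% for MLL-AF6 against the others under MI-2-2, and from 69.8% to 53% for MLL-AF9 against MLL-AF6 under MI-2-2, and with quantile normalization from 33.2% to 44.2% for MLL-AF6 against MLL-AF1p under MI-2-2. voom called 3168 genes higher and 3038 lower with MI-2-2 in MLL-AF9 cells, 2006 and 4314 for MLL-AF6, and 2377 and 3414 for MLL-AF1p, against 3203 and 3136, 2025 and 4377, and 2150 and 2953. Low read counts of Mllt3 and Mllt4 limit their precision.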
